A study of Homo sapiens with 12 samples.

Results

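The EGR, FOS and JUN families hold the textbook immediate early genes, and 10 genes of these families were followed here by their symbols among the 20003 genes measured. They are EGR1, EGR2 and EGR3 of the EGR family, FOS, FOSB, FOSL1 and FOSL2 of the FOS family, and JUN, JUNB and JUND of the JUN family. They were chosen by name, by a rule that used no measured value, but with earlier results of these data known. On GRCh38.p14 by RefSeq, the genes lie at chr5:138465479-138469303 (EGR1), chr10:62811996-62819167 (EGR2), chr14:75278828-75282230 (FOS), chr19:45467996-45475179 (FOSB), chr11:65892049-65900545 (FOSL1), chr2:28392858-28417317 (FOSL2), chr1:58780791-58784047 (JUN), chr19:12791486-12793315 (JUNB) and chr19:18279694-18281622 (JUND). The mRNA was sequenced in NB4 cells, an acute promyelocytic leukemia line that carries the PML-RARα fusion, and in Kasumi-1 cells, an AML line with t(8;21) that carries the AML1-ETO fusion. In each line, 3 samples were incubated with 1 μM OGP46 for 48 h, and 3 control samples received DMSO for 48 h. This is the time in the labels and the methods, while the legend of the study's mRNA figure gives a longer one. OGP46 is the compound whose differentiation effect on AML cells the study examined. Each line stands for a single leukemia, and the labels do not say whether the 3 samples of a group came from separate cultures, so p-values measure the spread between these samples only.

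Immediate early genes are transcribed within minutes after a growth factor, cytokine or stress signal, without new protein synthesis. Not every member of the families is regulated this way. All samples here are of 48 h, so a response within minutes was not measured. MAP kinases and other kinases activate factors that are already bound at their promoters, chiefly serum response factor with its ELK partners at CArG boxes and CREB or ATF proteins at cyclic AMP response elements. EGR proteins are zinc finger factors that bind GC-rich sites, while FOS and JUN proteins pair through leucine zippers to form AP-1, and a FOS protein needs a JUN partner. EGR1, EGR2 and several AP-1 proteins are known for their part in the maturation of myeloid cells along the monocyte and macrophage path.

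Promoter sequences were available for 8 of the 10 genes, from RefSeq on GRCh38.p14, in windows of 250 bases before to 50 bases after the annotated start. The stretches below show matches to known kinds of input sites within these windows. They are of the genes that differ most between the groups, next to JUNB and JUND as the most abundant members. They are written 5′ to 3′ on the strand of the gene, and capitals mark CArG boxes, the TGACG half-site on either strand and the letters TATAA on either strand. The EGR2 stretch belongs to the third of 3 listed starts, and bases inside an exon of GENCODE release 29 are left out, which shortens the FOS stretch.
EGR1, chr5:138465329-138465478, plus strand: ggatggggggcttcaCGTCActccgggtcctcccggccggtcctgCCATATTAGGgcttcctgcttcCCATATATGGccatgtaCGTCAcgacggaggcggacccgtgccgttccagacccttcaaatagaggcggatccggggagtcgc
EGR2, chr10:62816367-62816516, minus strand: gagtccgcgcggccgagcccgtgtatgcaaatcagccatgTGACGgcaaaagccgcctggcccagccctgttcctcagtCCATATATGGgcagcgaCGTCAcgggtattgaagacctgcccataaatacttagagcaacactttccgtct
FOS, chr14:75278678-75278773, plus strand: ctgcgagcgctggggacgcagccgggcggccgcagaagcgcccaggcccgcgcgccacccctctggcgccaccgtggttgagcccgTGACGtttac
JUNB, chr19:12791336-12791485, plus strand: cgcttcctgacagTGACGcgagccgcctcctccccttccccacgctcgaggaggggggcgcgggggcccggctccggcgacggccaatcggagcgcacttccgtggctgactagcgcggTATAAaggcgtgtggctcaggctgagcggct
JUND, chr19:18281623-18281772, minus strand: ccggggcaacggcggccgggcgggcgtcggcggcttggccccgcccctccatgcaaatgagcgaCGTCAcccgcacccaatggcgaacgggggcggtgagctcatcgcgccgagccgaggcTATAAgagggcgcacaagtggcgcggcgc
Each of the 8 genes held the half-site TGACG in its window, EGR2 at the third start, against 24.6% of 35116 RefSeq promoter windows of the same length. The full site TGACGTCA, which contains the half-site on both strands, was found in the JUND window alone, farther upstream than the stretch shown, against 1.85% of all windows. A CArG box was found in the EGR1 and EGR2 windows, against 1.29% of all windows, and EGR1 held 2 of them. The EGR site GCGNGGGCG was found for EGR1 upstream of the stretch shown, for EGR2 at its second start, and in 9.43% of all windows, and the AP-1 site TGANTCA in that of FOSL2 and in 7.71%. In the JUN window, which lies inside an exon of that release and is not shown, the octamer TGACATCA lay between 67 and 60 bases before the start, a match present in 2.61% of all windows. The letters TATAA were found in the windows of FOS, FOSB, JUNB and JUND and in 20.4% of all. These are matches of letters on both strands, not measured binding sites. Sites outside the windows were not searched, so the lack of a CArG box match for FOS or another gene applies to its window only.

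The levels were read as FPKM, in which the fragments of a gene are divided by its length and by the size of the library, so that levels of different genes can be compared. In NB4 controls the order of the mean levels was JUNB, JUND, FOSL2, FOSL1, JUN, FOS, EGR1, FOSB, EGR2 and EGR3. JUNB, an AP-1 subunit often high in myeloid cells, had 34.1 ± 5.67 FPKM (SD, n = 3) and JUND, the steadily expressed JUN member, had 27.4 ± 4.04. The samples of these neighbours overlapped. FOSL2 (10.3 ± 1.67) came next in every sample, followed by FOSL1 (6.74 ± 0.794) and JUN (6.27 ± 2.64), which overlapped. FOS and EGR1, the best known genes of the group, were at 1.72 ± 0.568 and 0.894 ± 0.138 FPKM, and FOSB was at 0.140 ± 0.0240. The order in treated NB4 cells was the same. In Kasumi-1 controls the order differed in that JUND (50.2 ± 4.35 FPKM) came before JUNB (22.5 ± 3.44), JUN (4.18 ± 0.345) before FOSL1 (3.13 ± 0.717), and EGR1 (0.942 ± 0.210) before FOS (0.721 ± 0.0763). The first and second of these pairs did not overlap, and the third did.

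**Figure D1:**
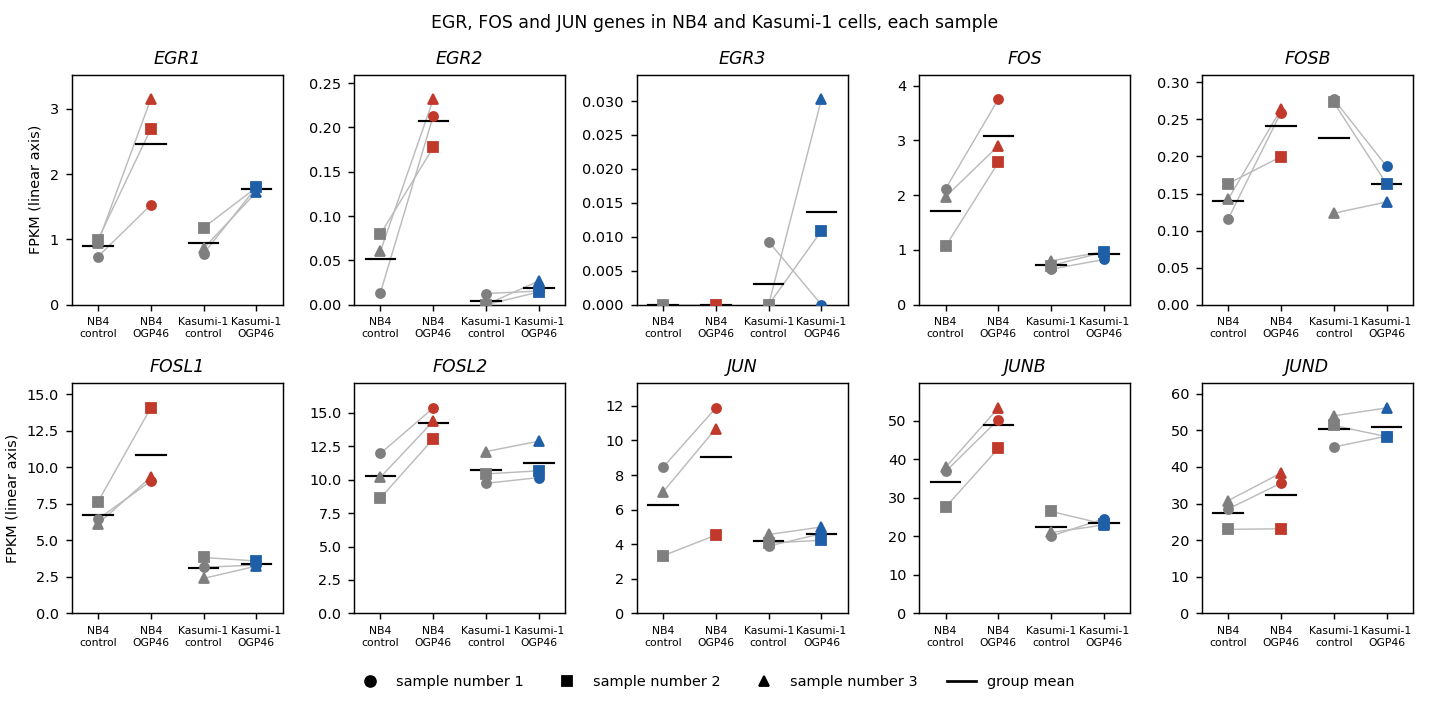
FPKM of each of the 10 genes (linear vertical axis, own scale for each gene) in the 12 samples, with a black bar at the mean of each group of 3 and a grey line between control and OGP46 samples of the same number. EGR1 is higher with OGP46 in both cell lines without overlap, while JUN and JUND of NB4 cells are lowest in both samples numbered 2.

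In NB4 cells with OGP46, all 9 genes that could be tested had a higher mean than in the controls, and EGR1 rose. Of these, EGR2 could be tested only through its treated samples, which fixed its direction. The log2 differences of all genes tested also had a median above 0, at 0.18. With median centring, which took that median to -0.04, 8 of the 9 members were higher. EGR1, the founding EGR factor, measured 0.736, 0.995 and 0.950 FPKM in the controls and 1.53, 2.69 and 3.15 FPKM with OGP46. Every treated sample lay above every control, and the means differed 2.75-fold. On the scale of log2(FPKM + 0.1), which understates the change of low genes, EGR1 was higher by 1.31 (SE 0.26), with a Benjamini-Hochberg adjusted p of 0.0434 in limma over 11750 genes. The threshold, taken from the study's methods, was an adjusted p under 0.05 with a log2 fold change of at least 0.58, and 1.45% of the genes tested passed it upward. EGR1 was thus 1 of 9 members past it.

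Control and OGP46 samples with the same number deviated together in both cell lines, so the model was also fitted with the number as a block, which passed 5.06% of the genes upward. With the block, EGR1 (adjusted p = 0.000218), EGR2 (0.0301), FOS (0.00180) and FOSL1 (0.00141) rose in NB4 cells, 4 of 9 members. EGR2 passed the filter on low values only through its treated samples, so without it the count was 3 of 8. The median log2 fold change of the 9 members was 0.52 and that of all genes tested was 0.18, and median centring took the median of all genes to -0.04. With the block and median centring, EGR1 (log2 1.09, adjusted p = 0.00412) and FOS (0.63, adjusted p = 0.0351) still passed, whereas FOSL1 (0.43, under the minimum size) and EGR2 (0.83, adjusted p = 0.115) did not. With the block and no filter on low values, none of the 20003 genes passed, and the adjusted p was 0.156 for EGR1, 0.197 for EGR2, 0.202 for FOS and 0.167 for FOSL1.

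EGR2, a factor of macrophage and lymphoid development, was close to 0 in the NB4 controls, with 0.0137, 0.0797 and 0.0604 FPKM. With OGP46 it measured 0.213, 0.178 and 0.232 FPKM, above every control. The means differed 4.05-fold, while the log2 difference with the pseudocount was 1.05 (SE 0.28, adjusted p = 0.0747 without the block). EGR3, the third factor of the family, was listed at 0 in all 6 NB4 samples and could not be tested. The summed FPKM of the EGR family was 0.945 ± 0.172 in the controls and 2.66 ± 0.840 with OGP46, and EGR1 made up 94.9% and 91.6% of it.

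Among the FOS genes, FOS itself measured 2.11, 1.07 and 1.97 FPKM in the NB4 controls and 3.75, 2.60 and 2.90 FPKM with OGP46. The groups did not overlap, and FOS was higher in each of the 3 same-numbered pairs, by 1.77-fold, 2.44-fold and 1.47-fold. Its log2 difference was 0.85 (SE 0.25, adjusted p = 0.0885 without the block). FOSL1, a FOS relative without the transactivation domain of FOS, measured 6.45, 7.64 and 6.13 FPKM in the controls and 9.06, 14.1 and 9.33 with OGP46. Its treated sample numbered 2 was the highest, unlike for FOS, and the log2 difference was 0.65 (SE 0.17, adjusted p = 0.0746 without the block).

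FOSL2, the most abundant FOS gene, went from 12.0, 8.63 and 10.2 FPKM to 15.4, 13.1 and 14.4, and the groups did not overlap. Its log2 difference of 0.48 (SE 0.13) was under the minimum size, with an adjusted p of 0.0743 without the block and 0.00416 with it. FOSB, a close relative of FOS, measured 0.116, 0.163 and 0.142 FPKM in the controls and 0.259, 0.1996 and 0.264 with OGP46. This was a log2 difference of 0.50 (SE 0.23) with an adjusted p of 0.185, and 0.167 with the block. By annotation FOSB overlaps the DNA repair gene ERCC1 on the other strand, which was at 4.07 to 5.34 FPKM in NB4 cells. The kit was stranded, but whether the estimation of FPKM used strand is not given in the sources used here, so the share of ERCC1 reads in the low FOSB values cannot be told.

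None of the JUN genes reached the minimum size in NB4 cells. JUNB measured 36.8, 27.6 and 37.9 FPKM in the NB4 controls and 50.3, 42.8 and 53.3 with OGP46, without overlap, a log2 difference of 0.52 (SE 0.14), with an adjusted p of 0.0723 and of 0.00140 with the block. JUN, the founding member of its family, measured 8.45, 3.34 and 7.02 FPKM in the controls and 11.9, 4.53 and 10.7 with OGP46. The samples numbered 2 were the lowest of each group, both below every other NB4 sample. The same-numbered pairs differed by 1.41-fold, 1.36-fold and 1.52-fold, so that the log2 difference of 0.51 had an SE of 0.42 without the block and of 0.094 with it (adjusted p = 0.431 and 0.00384). JUND went from 28.5, 22.9 and 30.8 FPKM to 35.6, 23.1 and 38.3, which overlapped, and its difference of 0.21 (95% interval -0.23 to 0.65, adjusted p = 0.468) became -0.01 after median centring.

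Taking the 3 families side by side, 7 of the 9 NB4 members had treated samples that all lay above all controls, and 6 of 8 without EGR2, against 32.7% of all genes tested. In the fit with the block and no minimum size, 7 of 9 passed as higher, or 6 of 8 without EGR2, and none as lower, against 21% of all genes passing as higher. The members that did not were FOSB and JUND. The summed FPKM of the FOS genes was 18.9 ± 1.61 in the controls and 28.4 ± 1.53 with OGP46, and that of the JUN genes was 67.8 ± 12.1 and 90.2 ± 17.2. These values are not scaled, and the FPKM total over all genes was also higher in every treated than in every control NB4 sample. Without the block, the call for EGR1 was lost with each scaling alternative, with no filter on low values and when any of 5 of the 6 samples was left out, at log2 differences between 1.09 and 1.61. The exception was the treated sample numbered 2, without which EGR1 and JUNB (0.62) passed. With the block, EGR1 passed under every scaling tried but not with no filter on low values.

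**Figure D2:**
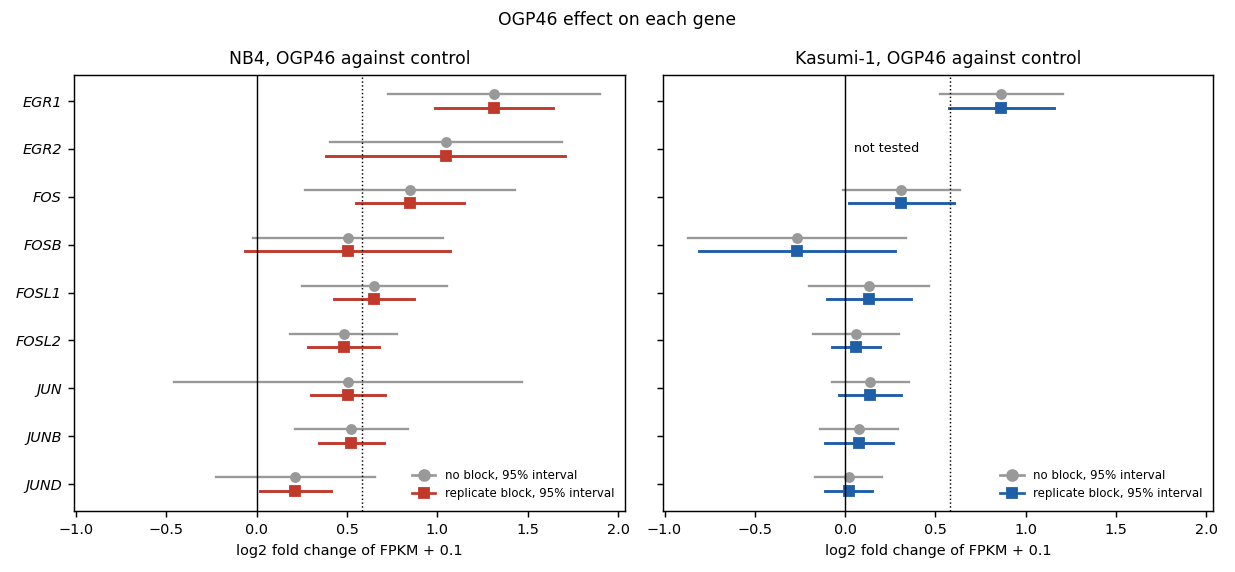
Log2 fold change of FPKM + 0.1 between OGP46 and control for 9 genes in NB4 cells (left) and Kasumi-1 cells (right), as points with 95% intervals from limma, in grey without and in colour with the replicate block; the dotted line is the minimum size of 0.58. EGR1 lies at 1.31 in NB4 and at 0.87 in Kasumi-1 cells, whereas the other Kasumi-1 values lie between -0.27 and 0.31.

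In Kasumi-1 cells, EGR1 again had the largest log2 difference of the genes tested, 8 there. EGR1 measured 0.784, 1.18 and 0.862 FPKM in the controls and 1.80, 1.80 and 1.73 FPKM with OGP46. The groups did not overlap, and the means differed 1.88-fold. The log2 difference was 0.87 (SE 0.15), with an adjusted p of 0.0649 in limma, so that 0 of 8 members passed the threshold, against 0.0169% of 11835 genes upward. At an unadjusted p under 0.05 with the same minimum size, EGR1 was the 1 member that passed, as did 76 of the 11835 genes upward and 67 downward. With the block EGR1 rose (adjusted p = 0.0122), 1 of 8 members, against 0.27% of all genes, and it passed with the block under each scaling tried. With the block and no filter on low values its adjusted p was 0.301.

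FOS was the other tested gene whose Kasumi-1 groups did not overlap, which made 2 of 8 tested members against 17.4% of all genes. It measured 0.649, 0.714 and 0.801 FPKM in the controls and 0.826, 0.961 and 0.967 with OGP46, a log2 difference of 0.31 (95% interval -0.01 to 0.64, adjusted p = 0.339, and 0.194 with the block). FOSB lay in the other direction, at 0.277, 0.273 and 0.123 FPKM in the controls and 0.187, 0.163 and 0.139 with OGP46, which overlapped (log2 difference -0.27, 95% interval -0.87 to 0.34). ERCC1, which overlaps it, was at 8.92 to 10.6 FPKM in Kasumi-1 cells.

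The other 5 members tested in Kasumi-1 cells overlapped between the groups. FOSL1 went from 3.16, 3.83 and 2.40 FPKM to 3.31, 3.59 and 3.24, and FOSL2 from 9.73, 10.4 and 12.1 to 10.2, 10.7 and 12.9. Their log2 differences were 0.13 (95% interval -0.20 to 0.46) and 0.06 (-0.18 to 0.30). JUN, at 3.90, 4.08 and 4.56 FPKM in the controls and 4.61, 4.23 and 4.996 with OGP46, differed by 0.14 (-0.08 to 0.35). For JUNB and JUND the differences were 0.08 (-0.14 to 0.29) and 0.02 (-0.17 to 0.21), so a change of the minimum size lay outside the interval of each of these 5 genes. By annotation JUNB overlaps HOOK2 on the other strand, which was at no more than 2.26 FPKM in any sample of either line. EGR2 and EGR3 were too low to be tested in Kasumi-1 cells, with at most 0.0269 and 0.0303 FPKM in any sample. EGR2 was listed at 0.0126, 0 and 0 FPKM in the controls and at 0.0154, 0.0143 and 0.0269 with OGP46, which did not overlap. The sums of the FOS genes were 14.8 ± 0.885 and 15.7 ± 1.40 FPKM without and with OGP46, and those of the JUN genes 76.9 ± 6.60 and 79.1 ± 4.38.

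Whether the effect of OGP46 differed between the cell lines was tested as an interaction in one model of the 12 samples. The NB4 effect was the larger one for all 8 genes tested, by a median of 0.45 on the log2 scale against 0.12 over all 12309 genes. None of the 8 passed at an adjusted p under 0.05, and 0% of all genes passed as larger in NB4. At an unadjusted p under 0.05, 3 of the 8 members had a larger effect in NB4 cells without the block, as had 1225 of the 12309 genes, and with it these counts were 6 and 1936. At an adjusted p under 0.05, 1.81% of all genes passed with the block and again no member, the smallest adjusted p being 0.0658 for FOSL2 (difference 0.42, SE 0.10). For EGR1, the difference between the lines was 0.45 (95% interval -0.25 to 1.15, and -0.03 to 0.92 with the block), so a larger effect in NB4 cells was not shown for it.

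The mean of the effects in both lines, a comparison added after the data were seen, was above the threshold for EGR1 as the single member among 8, against 0.999% of all genes. It was 1.09 (SE 0.16, adjusted p = 0.00374), and 0.000503 was the adjusted p with the block, under which 1.36% of all genes passed. FOS had a mean effect of 0.58 (adjusted p = 0.0272) that lay just under the minimum size at 0.5797, and JUNB had 0.30 (adjusted p = 0.0456).

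The controls of the cell lines differed in 4 of the 8 members tested, by the same threshold and over 12302 genes. FOS, FOSL1 and JUNB, 3 of 8, were higher in NB4 controls, against 22.7% of all genes. JUND, 1 of 8, was lower, against 29.7%. With both directions counted, the members did not differ between the lines more often than all genes. The log2 differences of NB4 from Kasumi-1 controls were 1.09 for FOS (SE 0.24, adjusted p = 0.00267), 1.10 for FOSL1 (SE 0.17, adjusted p = 0.000284), 0.59 for JUNB (SE 0.14, adjusted p = 0.00447) and -0.88 for JUND (SE 0.12, adjusted p = 0.000115). EGR1 did not differ beyond its spread between the lines, with a difference of -0.06 (95% interval -0.49 to 0.37) that turned to between 0.08 and 0.24 under the other scalings. FOSL2 differed by -0.07 (-0.37 to 0.22) and JUN by 0.48 (-0.18 to 1.13). JUN differed by 0.87 and passed (adjusted p = 0.000178) without the NB4 control numbered 2, and by 0.21 without the one numbered 1. JUNB fell under the minimum size, to between 0.51 and 0.55, without the NB4 control numbered 1 or 3 or the Kasumi-1 control numbered 1 or 3. FOSB differed by -0.65 and passed (adjusted p = 0.0241) without the Kasumi-1 control numbered 3. The numbers of the controls did not pair samples across the lines.

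These levels gave the lines a different make-up of AP-1 transcripts. JUNB made up 50.4% ± 0.718 of the summed JUN family FPKM in NB4 controls and 29.2% ± 2.96 in Kasumi-1 controls, and JUND 40.6% ± 1.98 and 65.3% ± 2.57. FOSL2 made up 54.2% ± 4.42 and 72.4% ± 5.32 of the FOS family, FOSL1 36.05% ± 6.66 and 21.2% ± 5.003, and FOS 9.01% ± 2.53 and 4.86% ± 0.290. With OGP46 the JUNB share in NB4 cells was 54.8% ± 5.20 and the JUND share was 35.5% ± 2.44. In Kasumi-1 cells with OGP46 the JUNB share was 29.9% ± 2.29 and the JUND share 64.3% ± 2.24, within the spread of the controls. These shares describe transcripts, not proteins.

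**Figure D3:**
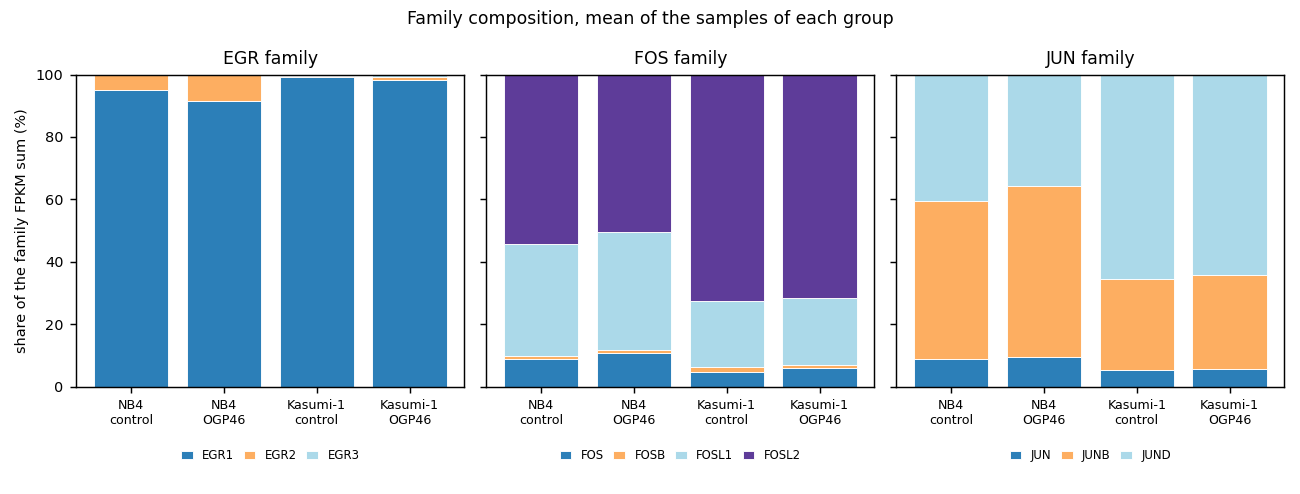
Mean share of each gene in the summed FPKM of its family (percent, stacked bars from 0 to 100) in each group of 3 samples. JUND holds 65.3% of the JUN family in Kasumi-1 controls and 40.6% in NB4 controls, and EGR1 holds over 91% of the EGR family in every group.

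The genes around the 10 members were followed in lists drawn up by function, with earlier results of these data known. In NB4 cells, 1.45% of all genes tested rose without the block and 5.06% with it. In Kasumi-1 cells these shares were 0.0169% and 0.27%. Without the block, no gene of NB4 cells rose under TPM scaling, median centring or quantile normalization, so each call made there without the block was lost under these scalings. With the block, 595 genes of NB4 cells rose, and 188 once median centring was added. The calls of list and marker genes with the block are given without scaling only. Of the AP-1 dimer partners (BATF, ATF, JDP and MAF genes), 10 were tested in NB4 cells, with a median log2 difference of 0.40. MAFG, the most abundant partner, had a difference of 0.52. Of the EGR co-repressors and relatives, 3 were tested in each line and none passed, with NAB1 and NAB2, which bind EGR proteins and repress them, at 0.48 and 0.06 in NB4 cells, and WT1, the most abundant, at 0.09.

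Of the transcription factors that act upstream of immediate early genes, 1 of 10 rose in NB4 cells, the serum response factor partner ELK3, by 0.73 (SE 0.09, adjusted p = 0.0226). SRF itself differed by 0.20 and ELK1, the most abundant of the list, by 0.18. No gene of the MAP kinase cascade passed, of 21 tested in NB4 cells and 20 in Kasumi-1 cells, with or without the block. The medians of these lists in NB4 cells, 0.26 and 0.25, were near that of all genes, 0.18.

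Of 21 other immediate early genes tested in NB4 cells, 4 rose without the block and 8 with it. KLF2 (log2 1.97, SE 0.20), KLF6 (1.14) and CSRNP1 (0.79), all transcription factors, and ZFP36 (0.99), which binds AU-rich elements and speeds the decay of FOS and cytokine mRNA, passed both fits. The survival gene IER3 (1.35), the anti-proliferative gene BTG2 (1.58), the kinase gene SGK1 (0.95) and the small GTPase gene RHOB (1.08) passed with the block only. MYC, the most abundant of the list at 55.0 to 85.9 FPKM in NB4 cells, differed by -0.26 (adjusted p = 0.255). The median of the list was 0.49. In Kasumi-1 cells KLF2 was the 1 of 22 that rose, with the block (0.98, adjusted p = 0.00672). Of 6 AU-rich element binding proteins, ZFP36 passed both fits in NB4 cells and ZFP36L1 (1.61) the fit with the block, while HNRNPD, the most abundant, differed by 0.03, and none passed in Kasumi-1 cells.

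Of 11 genes known as AP-1 targets that were tested in NB4 cells, the urokinase receptor gene PLAUR (0.68) and the protease inhibitor gene TIMP1 (0.65) rose without the block and 7 rose with it. The 5 added were MMP9 (1.54), IL1B (1.97), CXCL8 (1.91), CCL2 (1.22) and SPP1 (0.81), which are proteases, cytokines and secreted proteins of activated macrophages. VIM, the most abundant, differed by 0.45 (adjusted p = 0.252). The median of the list was 0.68. CXCL8 was the 1 of 9 that rose in Kasumi-1 cells, with the block (1.44, adjusted p = 0.00501). MMP9, IL1B, CXCL8 and CCL2 are among the genes the study itself took from these samples, so they are not independent evidence of a direction.

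**Figure D4:**
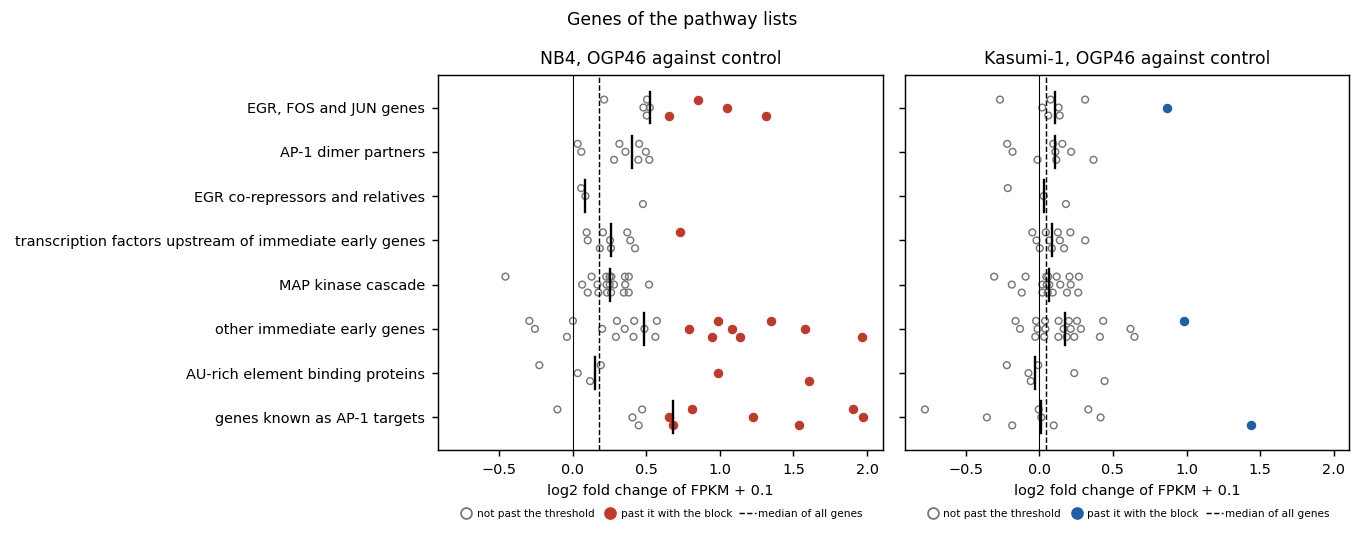
Log2 fold change of FPKM + 0.1 between OGP46 and control for the genes tested of the 10 members and of 7 pathway lists, genes not reported here left out of the points, in NB4 cells (left) and Kasumi-1 cells (right), with a black bar at the median of each list and a dashed line at the median of all genes. Filled points passed the threshold in the fit with the replicate block: 8 other immediate early genes and 7 AP-1 targets in NB4 cells, and none in the MAP kinase cascade.

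Markers of maturing monocytes were also higher with OGP46 in NB4 cells. The 5 markers CD14, ITGAM, CSF1R, CD68 and ITGAX summed to between 14.03 and 14.7 FPKM in NB4 controls and to between 23.5 and 26.7 with OGP46. Of them, 3 passed without the block and 5 with it, against 1.45% and 5.06% of all genes. The study itself named CD14 and ITGAM from these samples, so they are not independent evidence of a direction. In Kasumi-1 cells the sums were 9.57 to 12.6 and 13.5 to 15.5 FPKM, with CD14 at 0 in 3 of 6 samples. CD14 and ITGAM were too low to be tested there, and none of the 3 markers tested passed the threshold. CD68 carried the Kasumi-1 sums, with means of 9.16 and 12.6 FPKM without and with OGP46, and CSF1R came next at 1.37 and 1.40. CD68 was also the most abundant of the 5 in NB4 cells, with means of 8.93 and 13.7 FPKM. The 5 promyelocyte markers MPO, ELANE, PRTN3, AZU1 and CTSG summed to between 2605 and 3945 FPKM in NB4 controls. With OGP46 they summed to between 1586 and 2812 FPKM, which overlapped. With the block 4 of the 5 fell, against 1.15% of all genes. In Kasumi-1 cells the sums were 9612 to 11917 FPKM in the controls and 7759 to 8972 with OGP46, without overlap. None of the 5 passed the threshold there in either fit. The part of these markers in the EGR, FOS and JUN results was not tested. In bulk samples, more cells of a type and more RNA per cell cannot be told apart.

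The defining genes of Kasumi-1 cells (RUNX1T1, POU4F1, CD34, KIT and TRH) summed to between 237 and 299 FPKM there and to between 0.563 and 3.60 FPKM in NB4 cells, with the highest NB4 value in the control numbered 3. The T cell list was carried by CD3D, at 13.5 to 34.6 FPKM in NB4 cells, with CD3E and CD3G below 0.28 in all samples. The B cell list summed to at most 2.08 FPKM and the erythroid list to at most 0.184. Without the NB4 control numbered 3, EGR1 differed by 1.36 (adjusted p = 0.160). Without the Kasumi-1 control numbered 2, which held VIM at 3.43 FPKM against 0.337 to 0.643 in the other Kasumi-1 samples, EGR1 differed by 1.02 there and passed (adjusted p = 0.0435).

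As a description of pattern, the genes most like EGR1 over the 12 samples, with the mean of each line subtracted, included TIMP2 (Pearson r = 0.98) and TSPAN3 (0.97), out of 9936 genes that averaged 1 FPKM or more. For FOS they were SGPL1 (0.985), ENTPD4 (0.96) and CLIP1 (0.95), and for JUN they were EPB41L2 (0.98), RHOBTB3 (0.98) and THBS1 (0.98). Among the members, JUN was most like JUND (0.91) and FOS most like FOSL2 (0.91), whereas EGR1 was most like EGR2 (0.80). FOSL1 and JUN had a correlation of -0.17. The 12 points share treatment groups and same-numbered pairs, so these values carry no test.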

How the data were processed

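The mRNA of 12 samples was measured, 3 per group of cell line and treatment, grouped by the labels. The authors deposited 1 FPKM value per gene symbol and sample, made from libraries of a stranded mRNA kit. The submitters' processing notes name Trimmomatic, HISAT2, Cufflinks, HTSeq and hg38, without versions, and whether the estimation used strand is not given in the sources used here. Of the deposited FPKM values, 632 lay above 0 and below 0.0001, so they are estimates and not whole reads divided by length. The depth is therefore unknown, and no interval for counting error is given. Per sample, 27 gene symbols appeared as dates and were dropped, so that 20003 genes remained. FPKM summed to between 248207 and 310262 per sample, and 9339 to 9746 genes reached 1 FPKM. In NB4 cells every treated total (263341 to 291523) lay above every control total (248207 to 256268), while the Kasumi-1 totals overlapped.

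The values entered limma 3.58.1 (R 4.3.3, with a mean-variance trend) as log2(FPKM + 0.1), for all genes that averaged 0.1 FPKM or more across the samples of a fit. To be called, a gene needed a Benjamini-Hochberg adjusted p under 0.05 together with an absolute log2 difference of 0.58 or above, the limit given in the study's methods, and for the interaction the adjusted p alone. The functions were tested on simulated data. The numbers in the labels were also used as a block. Deviations of same-numbered samples from their group means correlated across genes by 0.35, 0.62 and 0.20 in NB4 cells. In Kasumi-1 cells they correlated by 0.22, 0.16 and 0.40. All were above 0.1, so the numbers were taken to pair the samples within a line. Of the 3 treated samples, 2 in NB4 and 3 in Kasumi-1 cells correlated best with the control of their own number. Among genes averaging 5 FPKM or more, 3 did in each line. The labels name no pairing, so results with the block depend on this choice. An exact permutation test of 3 against 3 cannot go below 0.1, so none was run.

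The members and lists were chosen with earlier results of these data known. All 10 members are named, with each list gene past the threshold in NB4 or Kasumi-1 cells, the most abundant gene of each list, and the 3 genes most like EGR1, FOS and JUN. Some genes that fall under these rules are not reported here. Further genes named in the closing section, the other listed genes given with values, VIM as a library check and the genes that overlap a member were chosen after their values were seen. Positions, overlaps and promoters came from RefSeq (GRCh38.p14) and GENCODE release 29. The alternatives were pseudocounts of 1 and 0.01, no filter, a filter at 1 FPKM, centring of medians, quantile normalization, TPM scaling, a joint model of the 12 samples, the block alone or with a scaling, and leaving out each sample. The block with TPM scaling, quantile normalization or no filter, leaving out both NB4 samples numbered 2, and the mean of both lines were added after the data were seen.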

Additional observations from a re-analysis of the deposited data

How the results depend on the processing

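In NB4 cells, 1 member passed without the block, 0 passed with no filter on low values, TPM scaling, median centring, quantile normalization or the block with no filter, 4 with the replicate block, 3 in the joint model of the 12 samples, and 2 with the block and median centring, TPM scaling or quantile normalization and without both NB4 samples numbered 2. Leaving out 1 sample gave 0 to 2. In Kasumi-1 cells the count was 0, and it was 1, EGR1 each time, with the filter at 1 FPKM, median centring, TPM scaling, the block, and the block with each scaling, but not with the block and no filter, while leaving out 1 sample gave 0 to 1. For the mean of both lines the count was 1, and 2 with a pseudocount of 0.01 and with no filter, and leaving out 1 sample gave 1 to 2. The interaction stayed at 0 under each setting, and the comparison of the controls gave 3 to 5 members. Signs turned for small differences only, none of them past the threshold. With median centring, with or without the block, JUND became -0.0066 in NB4 and -0.0474 in Kasumi-1 cells, FOSL2 -0.0063 in Kasumi-1 cells, and FOSB and JUND -0.0239 and -0.0251 in the mean of both lines. Between the controls, EGR1 became 0.13 with TPM scaling, 0.0786 with median centring and 0.24 with quantile normalization, and FOSL2 0.13 and 0.0642 with the first and second of these, with or without the block. Leaving out 1 sample gave ranges through 0 for JUN in the interaction (-0.0278 to 0.80), FOSB in the mean of both lines (-0.0069 to 0.18), and EGR1 (-0.17 to 0.0983) and FOSL2 (-0.19 to 0.0438) between the controls. In Kasumi-1 cells it did so for FOSL1 (-0.042 to 0.28), FOSL2 (-0.0411 to 0.15), JUNB (-4e-04 to 0.20) and JUND (-0.0521 to 0.0726). The causes were not tested. Of 835 member values under an alternative, 758 kept their direction and side of the threshold. Over all genes of NB4 cells, 595 rose and 135 fell with the block, and 188 rose and 203 fell once median centring was added. The depth behind the FPKM is unknown, so how firmly the lowest members (EGR2, EGR3 and FOSB) were measured cannot be given.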

Other observations

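Several immediate early genes outside the EGR, FOS and JUN families were nearly exclusive to one line in the control samples. Of 25 tested between the controls, 7 were higher in NB4 and 12 in Kasumi-1 cells, against 22.7% and 29.7% of all genes. KLF4, a zinc finger factor of the monocyte path, was at 2.12 to 4.01 FPKM in NB4 controls and at most 0.0327 in Kasumi-1 controls. The matricellular gene CYR61 (CCN1) was at 1.65 to 2.42 FPKM in Kasumi-1 controls and the synaptic gene ARC at 5.98 to 7.34, and both were at most 0.0877 FPKM in NB4 controls. KLF4, CYR61 and ARC, with others of the list, passed the filter on low values only through the line where they were high. The filter thus fixed their direction, and the counts above are a description only.

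The NB4 samples numbered 2, the control as well as the treated one, lay below the other 4 NB4 samples in JUN and JUND, 2 of 9 members, and in 7 of 21 other immediate early genes, against 7.47% of 11750 genes. The 7 were IER3, IER5, DUSP1, BTG2, KLF4, NFKBIA and TNFAIP3, chosen after their values were seen. Of the genes known as AP-1 targets, 3 of 11 were lowest in both samples numbered 2 as well. TNFAIP3, an inhibitor of NF-κB signalling, measured 13.2, 1.57 and 13.3 FPKM in the controls and 14.03, 2.25 and 16.3 with OGP46, and NFKBIA measured 33.2, 12.9 and 36.04 and then 43.0, 14.2 and 47.4. The difference between numbers was thus larger than that between treatments for both genes. Both samples numbered 2 lay above the other 4 in 10.7% of all genes and in none of the 9 members or the 21 genes. What sets the samples numbered 2 apart was not tested.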
